A study of Mus musculus and Homo sapiens with 14 samples.

Results

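The BCL2 family members described here are 10 genes, taken apart from family members that are usual p53 targets such as Bax, Bbc3 and Pmaip1. They are the pro-survival genes Bcl2, Bcl2l1 (BCL-XL) and Mcl1, the effector Bak1, and the BH3-only genes Bmf, Bcl2l11 (BIM), Bid, Bad, Bik and Hrk. They were chosen by symbol, and all 10 were found among the 50559 gene entries for EL4 tumours and the 55969 entries for EG7-OVA cells. Of the 10, 8 passed the filter on low counts in each table, and Bik and Hrk did not in either.

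BCL2 family proteins set whether the outer mitochondrial membrane stays intact. Pro-survival members hold the effectors BAK and BAX in check, BH3-only proteins bind the pro-survival members or activate the effectors directly, and active effectors let cytochrome c out to start the caspase cascade. In T lymphocytes BCL2 and MCL1 are known survival factors downstream of cytokines, and BIM is the BH3-only protein best known for the death of thymocytes and of T cells that lose cytokine support.

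The series holds RNA-seq of 14 libraries in 7 groups of 2, of which 10 libraries in 5 groups are used here. EG7-OVA, a mouse T cell lymphoma line derived from EL4 that expresses ovalbumin, was given azacytidine at 1.5 µM, decitabine at 0.2 µM or DMSO, the vehicle, at 0, 24 and 48 h and was harvested at 72 h. Azacytidine and decitabine are cytidine analogues that trap DNA methyltransferases, and azacytidine also enters RNA. EL4 tumours, from the parental mouse lymphoma line, were labelled P3 or P0. What these labels stand for, the host mice and any treatment of the tumours are not given in the labels, which list the genotype of every group as WT. Nothing in them says whether libraries of a group came from separate cultures or animals, so p-values measure the spread between these libraries, which may be technical.

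Library totals ran between 15690747 and 21048979 counts for EG7-OVA and between 21621580 and 25328708 for EL4. All 12 genes of a T cell marker list had reads in all 10 libraries. In EG7-OVA cells they summed to 3685 to 4780 CPM (the count scaled to the size of its library). In tumours the sums were 4545 to 4725 CPM. Ptprc was the highest of the 12 in every library. It was at 986 and 1401 CPM with azacytidine, against 2158 and 1885 CPM with DMSO. Both azacytidine libraries lay above both DMSO libraries for 6 of the 12 and below them for 3, so these sums pool opposite moves. By edgeR, 2 rose and 1 fell with azacytidine, and 3 rose with decitabine. Between the tumour groups, 1 was higher in P3 and 2 were lower. Of the markers of other cells, C1qa, C1qb and C1qc, which define macrophages, had no read in EG7-OVA, while Fbln1 of the fibroblast list was at 61.7 to 119 CPM and Pecam1 of the endothelial list at 58.1 to 82.6 CPM. The 15 macrophage markers summed to 26.9 and 23.1 CPM with azacytidine and 47.3 and 39.8 CPM with decitabine, against 7.59 and 10.6 CPM with DMSO, and 5 of 9 tested rose with each drug. The 8 fibroblast markers summed to 174 and 94.5 CPM with azacytidine and 189 and 153 CPM with decitabine, against 94.2 and 118 CPM with DMSO, and 3 of 5 tested rose with each drug. The 7 endothelial markers summed to 62.8 and 68.9 CPM with azacytidine and 78.3 and 86.2 CPM with decitabine, against 58.9 and 78.2 CPM with DMSO. The part of these genes' cells in the EG7-OVA results was not tested. In the tumours many such markers differed between groups. The 15 macrophage markers summed to 376 and 375 CPM in P3 tumours, against 1426 and 1763 CPM in P0 tumours. Of these, 13 were lower in P3. All 9 B cell markers were lower as well, with sums of 64.0 and 69.3 CPM in P3 tumours, against 294 and 506 CPM in P0 tumours, as were 7 of 9 dendritic cell markers and all 6 tested NK and cytotoxic markers. Fibroblast markers summed to 1697 and 1053 CPM in P3 and to 2948 and 3012 CPM in P0. Of the 8, 3 were called lower in P3 and 1 higher. The higher one was Pdgfrb, at 703 and 724 CPM in P3 tumours, against 348 and 306 CPM in P0 tumours. Neutrophil markers had higher sums in P3 tumours, at 19.2 and 67.2 CPM, against 9.23 and 12.1 CPM in P0 tumours. Endothelial markers summed to 244 and 164 CPM in P3 tumours, against 233 and 236 CPM in P0 tumours, and none of the 7 was called. The part of these cells in the tumour results below was not tested.

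In EG7-OVA cells Bmf made the largest move among the members. BMF is a BH3-only protein that is held on the cytoskeleton by dynein light chain and is released when cells detach or are stressed. The gene lies on the minus strand of chromosome 2 (GRCm38, chr2:118528757-118549687), and RefSeq gives it 3 start sites. Promoter windows, from 250 bases before to 50 bases after a start, are shown for Bmf, for Bcl2l11 and for Bcl2. Both drugs act on DNA methyltransferases, whose sites are CpG dinucleotides. The windows shown hold 13, 27 and 44 CpG, and windows of members not shown hold as few as 1. Methylation was not measured in these files. CpG dinucleotides are in capitals, and sequences are RefSeq's on GRCm38.p6, written 5′ to 3′ on the gene's strand.
Bmf, most upstream start, chr2:118549637-118549936, minus strand: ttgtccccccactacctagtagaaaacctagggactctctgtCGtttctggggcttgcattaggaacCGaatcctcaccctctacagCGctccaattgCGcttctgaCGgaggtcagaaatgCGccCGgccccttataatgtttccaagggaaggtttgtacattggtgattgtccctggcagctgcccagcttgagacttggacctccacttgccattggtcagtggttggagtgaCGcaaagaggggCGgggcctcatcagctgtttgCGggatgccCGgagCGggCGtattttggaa
Bcl2l11, most upstream start, chr2:128125788-128126087, plus strand: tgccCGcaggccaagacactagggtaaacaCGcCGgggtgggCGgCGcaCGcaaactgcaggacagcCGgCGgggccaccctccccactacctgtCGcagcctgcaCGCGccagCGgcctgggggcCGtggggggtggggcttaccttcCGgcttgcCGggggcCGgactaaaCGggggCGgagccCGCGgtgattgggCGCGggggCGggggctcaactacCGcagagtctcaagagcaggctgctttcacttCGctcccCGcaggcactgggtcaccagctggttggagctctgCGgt
Bcl2, chr1:106714241-106714540, minus strand: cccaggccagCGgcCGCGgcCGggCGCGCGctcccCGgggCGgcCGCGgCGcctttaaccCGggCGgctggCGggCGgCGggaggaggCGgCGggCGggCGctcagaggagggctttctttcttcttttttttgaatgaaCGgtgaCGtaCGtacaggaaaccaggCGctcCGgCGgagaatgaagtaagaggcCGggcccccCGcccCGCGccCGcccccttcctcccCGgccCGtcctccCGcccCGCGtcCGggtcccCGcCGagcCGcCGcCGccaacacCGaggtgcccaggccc
The Bmf window held 13 CpG, a number that 37.9% of all 32851 RefSeq windows reach, and the windows at its other start sites held 6 and 8. Bcl2l11 had 27 in the window shown, reached by 15.5% of windows, and 38 at its second start. Bcl2 had 44, reached by 2.25% of windows, and Mcl1 had 33. Bak1 had 11, Bid 22, Bcl2l1 22, 14 and 1 at its 3 starts, Bad 27 and 21, and Hrk 29. The median over all windows was 7. By edgeR, Bcl2, Bak1 and Bid, with 44, 11 and 22, did not pass with either drug. Bmf, Mcl1 and Bcl2l1 rose with both, with 13, 33 and 22 at the most upstream start. Bcl2l11 and Bad, each with 27 there, passed with azacytidine only. Several of these calls were lost when a library was left out, as given below. Whether CpG number relates to the response was not tested. A forkhead core, GTAAACA on either strand, was present in 3.65% of all windows and, among the 15 windows found for 9 members, only in that of Bcl2l11 shown above.

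Bmf was at 119 and 49.1 CPM with azacytidine and at 75.7 and 50.2 CPM with decitabine, against 1.11 and 8.92 CPM with DMSO. All 4 drug-treated libraries were above both DMSO libraries. Azacytidine raised Bmf by 4.06 ± 0.71 on the log2 scale (SE), with a 95% interval of 2.48 to 5.65 and an edgeR adjusted p of 0.00338. Decitabine raised it by 3.65 ± 0.70, with an interval of 2.09 to 5.21 and an edgeR adjusted p of 0.00655. Both drugs were set against the same 2 DMSO libraries, which the deposited table names CTRL1 and CTRL2, so these values are not independent of each other. The DMSO libraries themselves had 22 and 179 reads of Bmf. On log CPM with a prior count of 2 added, they were 7.43-fold apart in Bmf. Only 1.64% of the 19123 genes tested matched or passed that gap. Without CTRL1 the change was 3.21 with azacytidine and 2.81 with decitabine, and without CTRL2 it was 6.19 and 5.78. It stayed past the threshold in each of these. Some genes of the marker lists also differed between the DMSO libraries. The 9 B cell markers summed to 49.6 CPM in CTRL2, against 4.27 CPM in CTRL1. Most of that gap lay in Ebf1, at 19.7 and 0.0503 CPM, and Blk, at 19.1 and 2.06 CPM, while Ms4a1 had no read in either. Pdgfra of the fibroblast list was at 29.0 CPM in CTRL2 and 1.16 CPM in CTRL1. The part of such genes' cells in the Bmf gap was not tested. In bulk RNA, more cells that express a gene and more RNA per cell cannot be told apart.

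**Figure D1:**
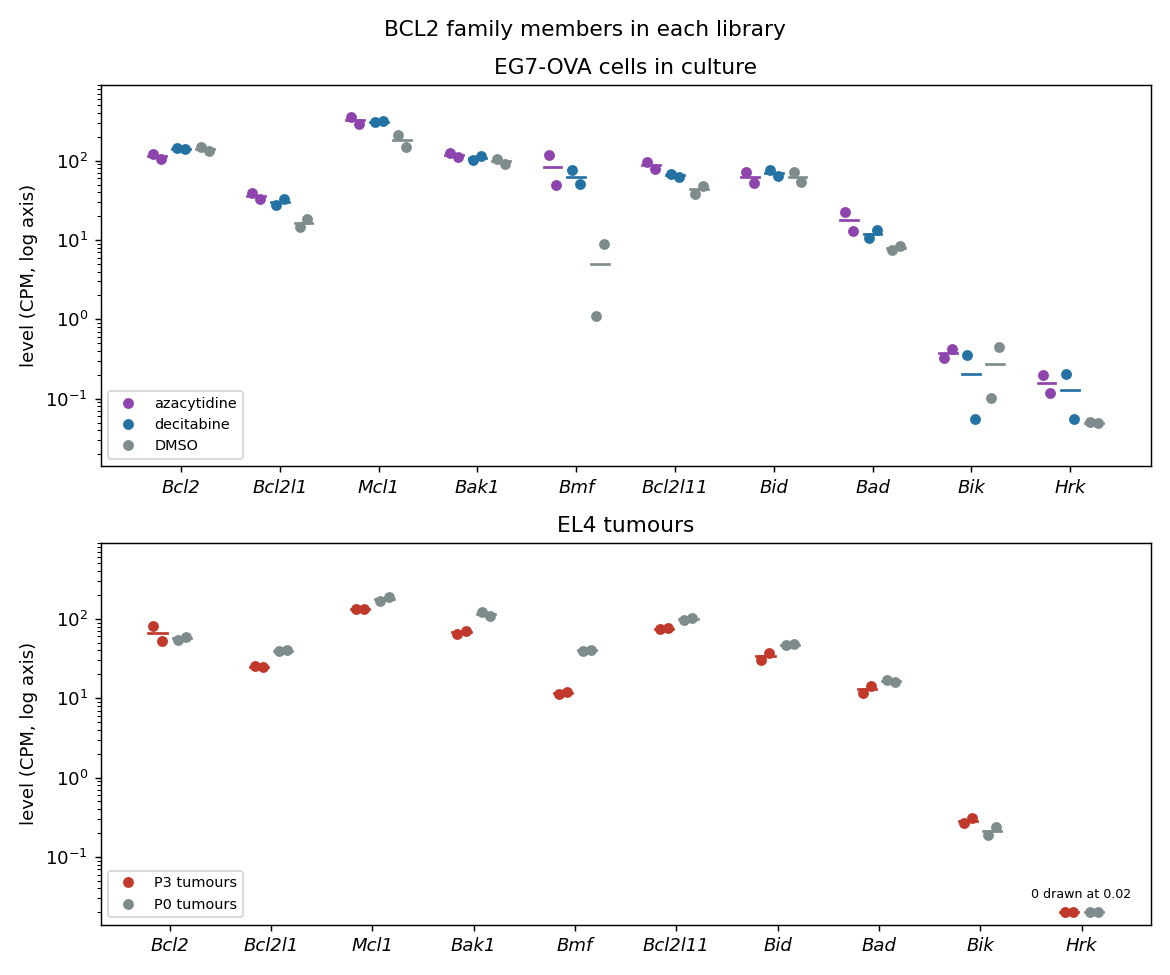
Level of each member in every library (log axis, CPM on scaled library sizes; 0 is drawn at 0.02), EG7-OVA cells above and EL4 tumours below. Each point is a library and each bar the mean of 2 libraries. Bmf spans 1.11 to 119 CPM in EG7-OVA cells, and Hrk and Bik lie under 1 CPM.

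Besides Bmf, azacytidine raised 4 members: the pro-survival genes Bcl2l1 and Mcl1 and the BH3-only genes Bcl2l11 and Bad. Decitabine raised 2 besides Bmf, Bcl2l1 and Mcl1. In all, 5 of 8 tested members rose with azacytidine and 3 of 8 with decitabine by edgeR at an adjusted p of 0.05, and no member fell with either drug. Over all genes tested, azacytidine changed 20.3% (13.6% rose and 6.7% fell) and decitabine 16.7% (12.4% rose and 4.3% fell). The median log2 change of the 8 tested members was 0.93 with azacytidine and 0.60 with decitabine, against 0.03 and 0.04 over all genes tested. The groups did not overlap for 7 of 8 members with azacytidine (61.1% of all genes) and for 5 of 8 with decitabine (58.8% of all genes).

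Of the pro-survival genes, Bcl2l1, which encodes BCL-XL, was at 39.3 and 33.3 CPM with azacytidine and at 27.5 and 32.7 CPM with decitabine, against 14.6 and 18.2 CPM with DMSO. Its log2 change was 1.14 ± 0.21 with azacytidine (edgeR adjusted p = 0.00483) and 0.87 ± 0.21 with decitabine (0.0198). Mcl1, which encodes a short-lived pro-survival protein, was at 355 and 291 CPM with azacytidine and at 306 and 312 CPM with decitabine, against 210 and 150 CPM with DMSO. The change was 0.84 ± 0.20 with azacytidine (edgeR adjusted p = 0.0147) and 0.78 ± 0.20 with decitabine (0.0238). Both genes were higher in all 4 drug-treated libraries than in either DMSO library. Bcl2, the founding member, differed from both: it was at 123 and 106 CPM with azacytidine and at 145 and 139 CPM with decitabine, against 149 and 132 CPM with DMSO. The azacytidine libraries lay below both DMSO libraries and the decitabine libraries lay among them. Its log2 changes of -0.29 ± 0.16 and 0.02 ± 0.16 did not pass (edgeR adjusted p = 0.242 and 0.961), with intervals of -0.66 to 0.07 for azacytidine and -0.34 to 0.38 for decitabine.

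Bak1 encodes BAK, which like BAX is an effector that forms pores in the outer mitochondrial membrane. It was at 126 and 110 CPM with azacytidine and at 103 and 116 CPM with decitabine, against 106 and 89.7 CPM with DMSO. The log2 changes of 0.27 ± 0.17 and 0.16 ± 0.17 did not pass the test (edgeR adjusted p = 0.308 and 0.597). Exons of Ggnbp1, on the opposite strand, cover part of Bak1, and whether reads were counted by strand is not given in the sources used here.

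Among the other BH3-only genes, Bcl2l11 was at 96.4 and 78.5 CPM with azacytidine and at 68.8 and 62.1 CPM with decitabine, against 38.2 and 48.5 CPM with DMSO. All 4 drug-treated libraries lay above both DMSO libraries. The log2 change was 1.01 ± 0.19 with azacytidine (edgeR adjusted p = 0.00483), while with decitabine 0.60 ± 0.19 did not pass (0.0574). It passed under DESeq2 (0.0400), with no filter (0.0282) and with a stricter filter on low counts (0.0499), and did not under the other 8 alternatives. Bad, whose protein loses its hold on BCL-XL when survival kinases phosphorylate it, was at 22.5 and 12.9 CPM with azacytidine and at 10.7 and 13.3 CPM with decitabine, against 7.39 and 8.32 CPM with DMSO. Each drug's libraries lay above both DMSO libraries, and the change was 1.17 ± 0.32 with azacytidine (edgeR adjusted p = 0.0258) and 0.61 ± 0.31 with decitabine (0.227). Gpr137, which lies on the opposite strand, shares 20.5% of Bad's exonic bases. It rose too, by 1.10 ± 0.19 with azacytidine and 0.87 ± 0.19 with decitabine. Whether reads were counted by strand is not given, so the part of Gpr137 reads in the Bad counts is not known.

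Bid, which links death receptors to mitochondria once caspase-8 cuts it, was at 72.9 and 51.6 CPM with azacytidine and at 76.1 and 64.9 CPM with decitabine, against 71.7 and 53.9 CPM with DMSO. The 3 groups overlapped, with log2 changes of -0.01 ± 0.22 and 0.17 ± 0.22 (edgeR adjusted p = 0.974 and 0.671). Bik and Hrk, BH3-only genes of narrow tissue range, were near 0. Bik had 5 and 7 reads with azacytidine, 7 and 1 with decitabine, and 2 and 9 with DMSO. Hrk had 3 and 2 reads with azacytidine, 4 and 1 with decitabine, and 1 and 1 with DMSO. No difference in either was detectable at this depth.

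When a library was left out, its group had a single library, which was then assumed to vary like the libraries of the other groups. In these fits Bmf was the only member whose calls with both drugs passed whichever library was left out. Without azacytidine library 1, Bmf was the only member of the 5 still past the threshold with azacytidine (edgeR adjusted p = 0.0516 for Bcl2l1, 0.0620 for Bcl2l11, 0.169 for Mcl1 and 0.261 for Bad). Without decitabine library 2 it was the only one of the 3 with decitabine (0.139 for Bcl2l1 and 0.129 for Mcl1). Mcl1 also lost its call with either drug without CTRL2 (edgeR adjusted p = 0.0893 and 0.136) and with decitabine without library 1 (0.0942), Bad with azacytidine without CTRL1 (0.0960), and Bcl2l1 with decitabine without CTRL1 (0.133).

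**Figure D2:**
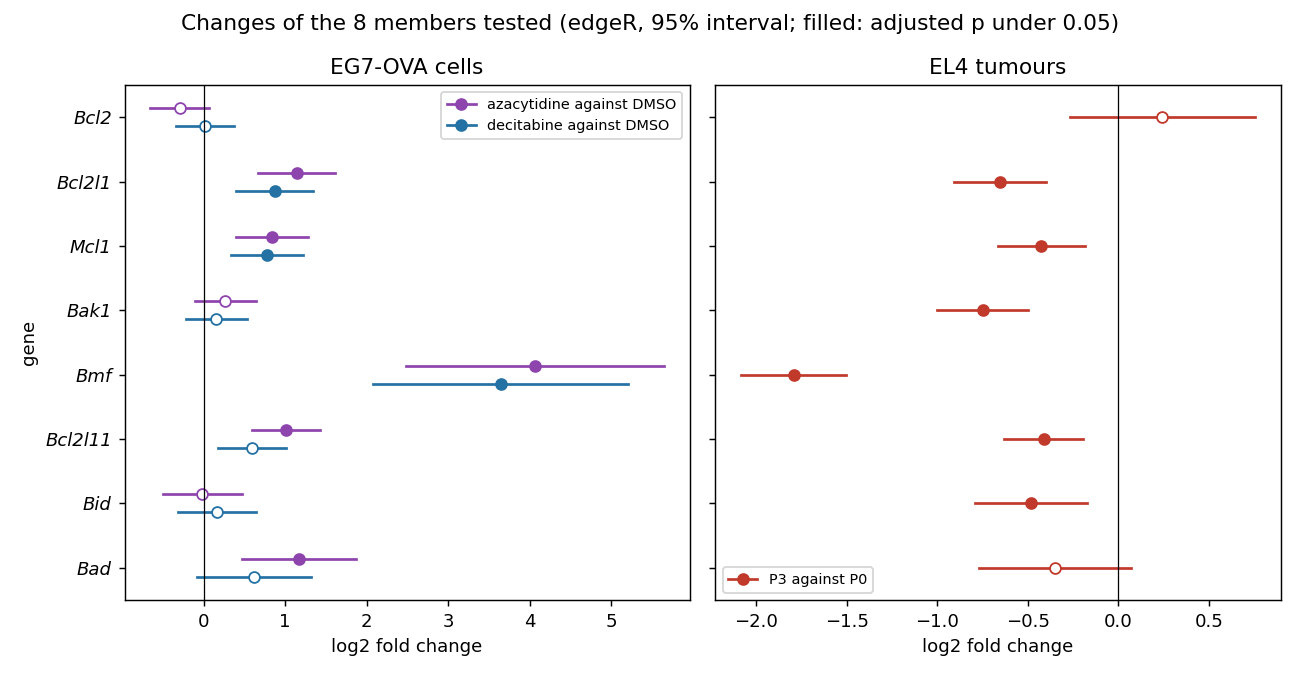
Log2 fold changes of the 8 tested members with 95% intervals, EG7-OVA cells on the left (azacytidine and decitabine against DMSO) and EL4 tumours on the right (P3 against P0). Filled points have an edgeR adjusted p under 0.05. Bmf is farthest from 0 in all 3 comparisons, at 4.06 and 3.65 with the drugs and at -1.79 in P3.

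Set against each other at their different doses, azacytidine and decitabine gave no difference that passed for the 8 tested members by edgeR, and no gene of 19123 passed (0%), although 1218 had an unadjusted p under 0.05. limma-voom called none either, while DESeq2 called 177 genes and no member. Bmf was at 119 and 49.1 CPM with azacytidine, against 75.7 and 50.2 CPM with decitabine, a log2 difference of 0.42 with a 95% interval of -0.94 to 1.77. For Bcl2l11 the azacytidine libraries were both above the decitabine libraries, with a difference of 0.42 and an interval of -8e-04 to 0.83 (edgeR adjusted p = 0.784). For Bcl2 they were both below, at 123 and 106 CPM against 145 and 139 CPM, with a difference of -0.31 and an interval of -0.67 to 0.05 (edgeR adjusted p = 0.865). Bcl2l1 was the third gene without overlap, with a difference of 0.27 and an interval of -0.20 to 0.74. Bad differed by 0.56, with an interval of -0.13 to 1.25, and Mcl1, Bak1 and Bid by 0.06, 0.11 and -0.18. Groups did not overlap for 3 of 8 members, Bcl2l11, Bcl2 and Bcl2l1, against 35% of all genes. The intervals leave room for moderate differences between the drugs, and doses were not matched.

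In EL4 tumours, 6 of 8 tested members fell in P3 relative to P0 and none rose. Those that fell were Bmf, Bak1, Bcl2l1, Bid, Mcl1 and Bcl2l11. Of all 19993 genes tested, 19.9% fell and 18.8% rose, so 38.7% were called in either direction. The median log2 change was -0.46 over the 8 members and -0.0019 over all genes. The groups did not overlap for 7 of 8 members, all lower in P3, against 76.1% of all genes.

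Bmf was again the member farthest from 0, at 11.2 and 11.9 CPM in P3 tumours, against 40.0 and 40.1 CPM in P0 tumours. The libraries of each group lay within 1.06-fold of each other, and the log2 change was -1.79 ± 0.12 (edgeR adjusted p = 0.000988). Bak1 was at 65.3 and 70.4 CPM in P3 tumours, against 121 and 108 CPM in P0 tumours, a change of -0.75 ± 0.10 (edgeR adjusted p = 0.00517). Bcl2l1 was at 25.5 and 24.6 CPM in P3 tumours, against 38.9 and 40.0 CPM in P0 tumours, a change of -0.65 ± 0.10 (edgeR adjusted p = 0.00759). In these 3 genes the P3 libraries were well below both P0 libraries.

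Smaller changes were found for Bid, Mcl1 and Bcl2l11. Bid was at 30.7 and 37.0 CPM in P3 tumours, against 47.0 and 47.8 CPM in P0 tumours, with a change of -0.49 ± 0.12 (edgeR adjusted p = 0.0302, and 0.154 by DESeq2 without P3 library 1). Bcl2l13, on the opposite strand, shares 17.7% of Bid's exonic bases and fell as well, by 0.45 on the log2 scale. Mcl1 was at 133 and 133 CPM in P3 tumours, against 168 and 190 CPM in P0 tumours, with a change of -0.43 ± 0.10 (edgeR adjusted p = 0.0214). Bcl2l11 was at 73.5 and 77.4 CPM in P3 tumours, against 97.8 and 103 CPM in P0 tumours, with a change of -0.41 ± 0.09 (edgeR adjusted p = 0.0176). Bid, Mcl1 and Bcl2l11 had no overlap between groups, though each change was less than 0.5 on the log2 scale. In an edgeR fit with a term for replicate number (the replicate block), the calls of Bid and Mcl1 were lost.

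Bcl2 and Bad did not pass. Bcl2 was at 81.1 and 53.1 CPM in P3 tumours, against 54.5 and 58.9 CPM in P0 tumours. The P3 libraries fell on either side of P0, with a log2 change of 0.24 ± 0.21 (edgeR adjusted p = 0.380). Without P3 library 2 the value was 0.51 and without P3 library 1 it was -0.083. The first of these passed (edgeR adjusted p = 0.000138), in a fit where the lone P3 library was assumed to vary like the 2 P0 libraries and 11286 genes were called. Bad was at 11.7 and 14.4 CPM in P3 tumours, against 17.1 and 16.1 CPM in P0 tumours, a change of -0.35 ± 0.17 (edgeR adjusted p = 0.147). In the same fit without P3 library 2 it was -0.52 (edgeR adjusted p = 0.0142). Bik had 6 and 7 reads in P3 and 4 and 6 in P0. Hrk had no read in any of the 4 tumour libraries, which allows up to 0.119 to 0.142 CPM per library at 3 counts.

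By edgeR, all 6 calls needed both P0 libraries; in these fits the lone P0 library was assumed to vary like the P3 libraries. Without P0 library 1 no member passed (edgeR adjusted p of 0.117 for Bmf to 0.220 for Bid), and without P0 library 2 none did either (0.0744 for Bmf to 0.221 for Bid), while each log2 change kept its direction. No gene of the whole table was called in either case by edgeR. DESeq2 called Bmf alone of the members without P0 library 1 and Bmf and Bak1 without P0 library 2, so Bmf passed there in both cases.

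On the scale per exon length, the order of levels was led by Mcl1, then Bak1, then Bid in all 5 groups. Mcl1 was at 94.4 ± 13.3 RPKM (CPM per kilobase of exon) with azacytidine, 90.4 ± 1.15 with decitabine and 52.8 ± 12.5 with DMSO, and at 39.0 ± 0.11 in P3 and 52.4 ± 4.39 in P0 (SD, n = 2 each). With DMSO and in P0, the libraries of Mcl1 and Bak1 overlapped, so their order there was not clear of the spread. Rank 3 of Bid was not clear of it either with azacytidine, where Bmf spanned 9.34 to 22.7 RPKM and Bid 14.5 to 20.5, with DMSO, where Bcl2 reached 16.3 RPKM and Bid began at 15.2, and in P3, where Bcl2l11 lay between the libraries of Bid. Bmf had rank 4 with azacytidine at 16.0 ± 9.44 RPKM, overlapping Bid, Bcl2 and Bcl2l11, rank 5 with decitabine at 12.0 ± 3.42 RPKM and rank 8 with DMSO at 0.954 ± 1.05 RPKM. In the tumours it had rank 8 in P3, at 2.20 ± 0.09 RPKM, and rank 6 in P0, at 7.62 ± 0.02 RPKM.

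Within the 6 BH3-only genes, Bmf made up 35.3% and 24.0% of the summed RPKM with azacytidine and 29.5% and 23.4% with decitabine, against 0.748% and 6.42% with DMSO. In P3 its share was 8.64% and 8.05%, against 19.1% and 18.9% in P0. Within the 3 pro-survival genes, Bcl2 made up 10.7% and 11.2% with azacytidine and 14.2% and 13.4% with decitabine, against 20.1% and 23.1% with DMSO. Its share was 16.6% and 11.6% in P3, against 9.34% and 9.11% in P0. Both sums were larger in drug-treated than in DMSO libraries. The BH3-only sum over the pro-survival sum was 0.511 and 0.375 with azacytidine and 0.438 and 0.360 with decitabine, against 0.347 and 0.425 with DMSO, so the groups overlapped. In tumours it was 0.461 and 0.562 in P3, against 0.625 and 0.572 in P0. These are ratios of transcript levels, summed after the values of the members were known, and carry no test.

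**Figure D3:**
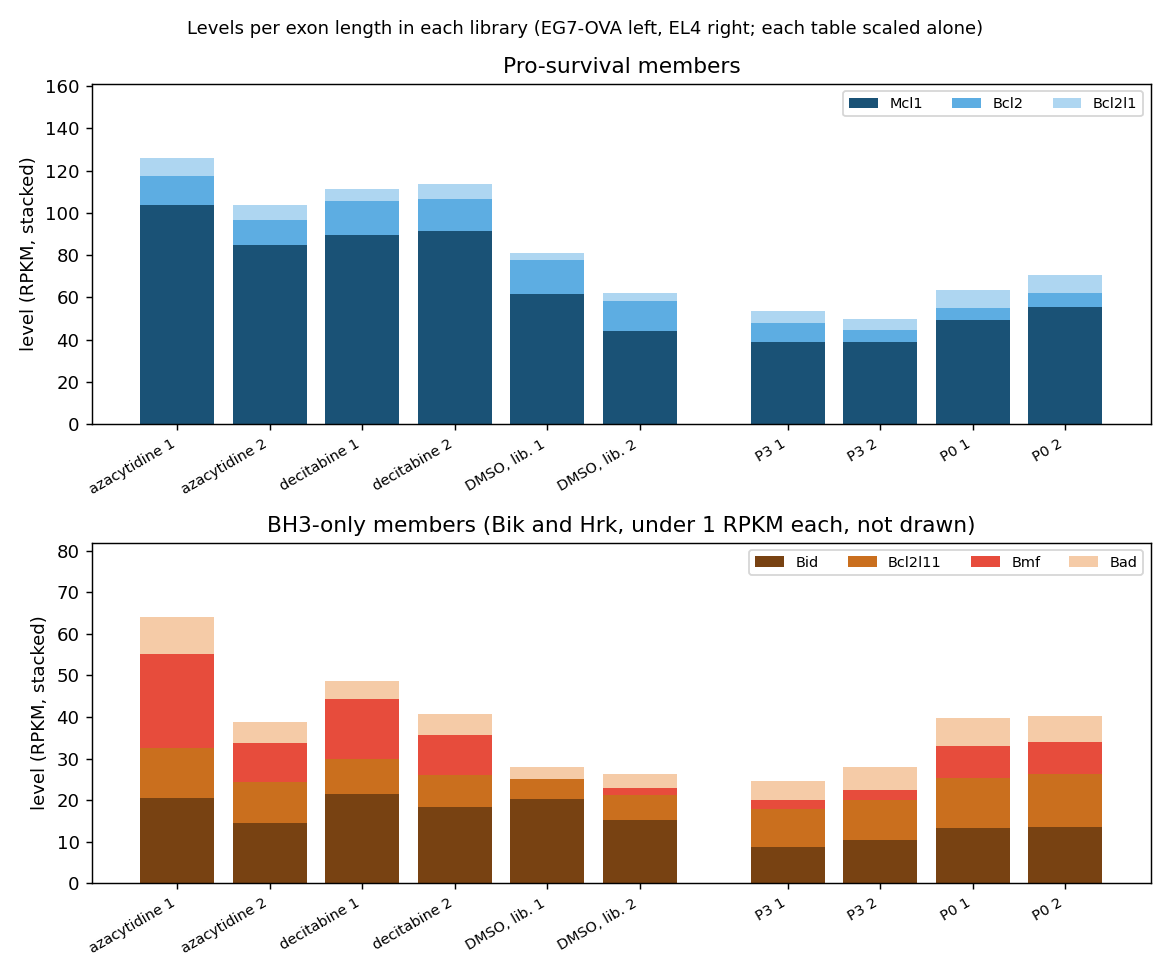
Summed RPKM of the pro-survival and of the BH3-only members in each library, stacked by gene. Mcl1 is the largest pro-survival layer in every library, at 70.5% to 82.5%, and the Bmf layer is thin with DMSO, at 0.748% and 6.42% of the BH3-only sum.

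Other genes of the same pathway are given for the setting. The shares of all genes called, against which these counts are read, were 20.3% with azacytidine, 16.7% with decitabine and 38.7% in P3 against P0. Of 15 other BCL2 family genes, 10 were tested in EG7-OVA cells, and the same number, 4, rose with azacytidine and with decitabine while none fell: Bax, Bbc3 (PUMA), Pmaip1 (NOXA) and Bcl2l14. Bax, the effector that works beside BAK, was at 79.8 and 68.0 CPM with azacytidine and at 60.2 and 89.3 CPM with decitabine, against 45.7 and 36.5 CPM with DMSO. Its log2 changes of 0.85 ± 0.22 and 0.86 ± 0.22 passed (edgeR adjusted p = 0.0225 and 0.0242). They did not without CTRL2 (0.112 and 0.114), nor with azacytidine without library 1 or 2 (0.177 and 0.0699), nor with decitabine without library 2 (0.225). Pmaip1, whose protein binds MCL1, was higher by 2.21 ± 0.34 and 2.06 ± 0.34, Bcl2l14 by 1.88 ± 0.35 and 1.94 ± 0.35, and Bbc3 by 1.68 ± 0.30 and 1.53 ± 0.30. Of these 3, Bbc3 lost its call with decitabine without library 2 (edgeR adjusted p = 0.0533, log2 change 0.98). The pro-survival gene Bcl2l2 did not pass with either drug, and Bok and Bcl2a1b were not tested for low counts.

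Of 23 genes of the mitochondrial and caspase steps, 1 rose and 4 fell with azacytidine, and 1 rose and 2 fell with decitabine. Over all genes, 13.6% rose and 6.7% fell with azacytidine, and 12.4% rose and 4.3% fell with decitabine. Pooled over directions the counts were near the shares over all genes. By direction the counts were small, and a lean to falls was not tested. The gene that rose was Apaf1, the scaffold that cytochrome c binds, by 0.76 ± 0.15 with azacytidine and 0.88 ± 0.15 with decitabine (edgeR adjusted p = 0.00686 and 0.00385). Its azacytidine call was lost without either azacytidine library (0.0570 and 0.0686). Casp2 fell by 0.61 and 0.59 on the log2 scale, calls that were lost without CTRL1 or any of the drug's own libraries (edgeR adjusted p of 0.0671 to 0.175). With azacytidine, Htra2 and Vdac2 had log2 changes of -0.90 ± 0.24 and -0.60 ± 0.19 (edgeR adjusted p = 0.0235 and 0.0461). With decitabine, Birc5 had a change of -0.79 ± 0.20 (edgeR adjusted p = 0.0219). The calls of Htra2, Vdac2 and Birc5 were each lost in some fits with a library left out. Cycs, which encodes cytochrome c, Casp9 and the caspase inhibitor gene Xiap did not pass with either drug. Of 23 tested regulators and partners of the members, 3 rose and 3 fell with azacytidine, and 2 rose and 3 fell with decitabine. The same shares over all genes apply. Foxo3, a forkhead factor known to activate Bcl2l11 transcription, was at 222 and 199 CPM with azacytidine and 196 and 261 CPM with decitabine, against 105 and 114 CPM with DMSO (edgeR adjusted p = 0.00579 and 0.00379), with the azacytidine call lost without azacytidine library 1 (0.0646). Il7r, the receptor chain through which interleukin 7 sustains Bcl2 in T cells, was at 8.95 and 5.90 CPM with azacytidine and 24.2 and 7.71 CPM with decitabine, against 65.7 and 129 CPM with DMSO (edgeR adjusted p = 0.000979 and 0.00541). Myc fell by 0.86 and 0.69 on the log2 scale, calls that were lost with azacytidine without library 2 (0.0696) and with decitabine without CTRL1, library 1 or library 2 (0.100, 0.0707 and 0.110). Pim1 was called lower with both drugs. Its log2 changes under the alternatives ran from -1.16 to -0.74 with azacytidine and from -1.63 to -1.20 with decitabine. Dynll1, the dynein light chain that binds BIM, did not pass with either drug.

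In the tumours, 2 of 14 tested other BCL2 family genes rose and 7 fell in P3, where 18.8% of all genes rose and 19.9% fell. Bax was at 53.1 and 55.1 CPM in P3 tumours, against 79.7 and 77.0 CPM in P0 tumours, a change of -0.53 ± 0.09 (edgeR adjusted p = 0.00892). Bcl2l2 rose by 0.33 ± 0.09 (edgeR adjusted p = 0.0409, not passed with DESeq2 at 0.0600 or with no filter at 0.0717), to 61.3 and 59.8 CPM in P3 tumours, against 46.7 and 49.8 CPM in P0 tumours. Bcl2a1b was at 1.99 and 2.33 CPM in P3 tumours, against 5.78 and 9.03 CPM in P0 tumours, an uncertain value because near-identical copies of Bcl2a1 share reads. Bcl2l15 and Bnip3l had log2 changes of 1.23 ± 0.25 and -0.62 ± 0.09 (edgeR adjusted p = 0.0155 and 0.00720). Bbc3 and Bok did not pass. Of the 23 mitochondrial and caspase genes, 1 rose and 8 fell, against those same shares of 18.8% and 19.9% over all genes. Casp6 and Mtch2 had log2 changes of -1.67 ± 0.28 and -0.42 ± 0.08 (edgeR adjusted p = 0.00941 and 0.0151). Casp8 rose by 0.35 (edgeR adjusted p = 0.0419, 0.0573 with no filter, and 0.180 by DESeq2 without P3 library 1), and Cycs was at 36.2 and 43.8 CPM in P3 tumours, against 60.9 and 53.6 CPM in P0 tumours (edgeR adjusted p = 0.0313, and 0.105 by DESeq2 without P3 library 1). Of the 24 regulators and partners, 3 rose and 4 fell, among them Dynll1, at 75.4 and 93.9 CPM in P3 tumours, against 158 and 165 CPM in P0 tumours (edgeR adjusted p = 0.00525), and Nr3c1, the glucocorticoid receptor gene, at 967 and 829 CPM in P3 tumours, against 457 and 470 CPM in P0 tumours (0.00513). Foxo3, Myc and Il7r did not pass. No tumour call of these lists held by edgeR when P0 library 1 or P0 library 2 was left out.

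**Figure D4:**
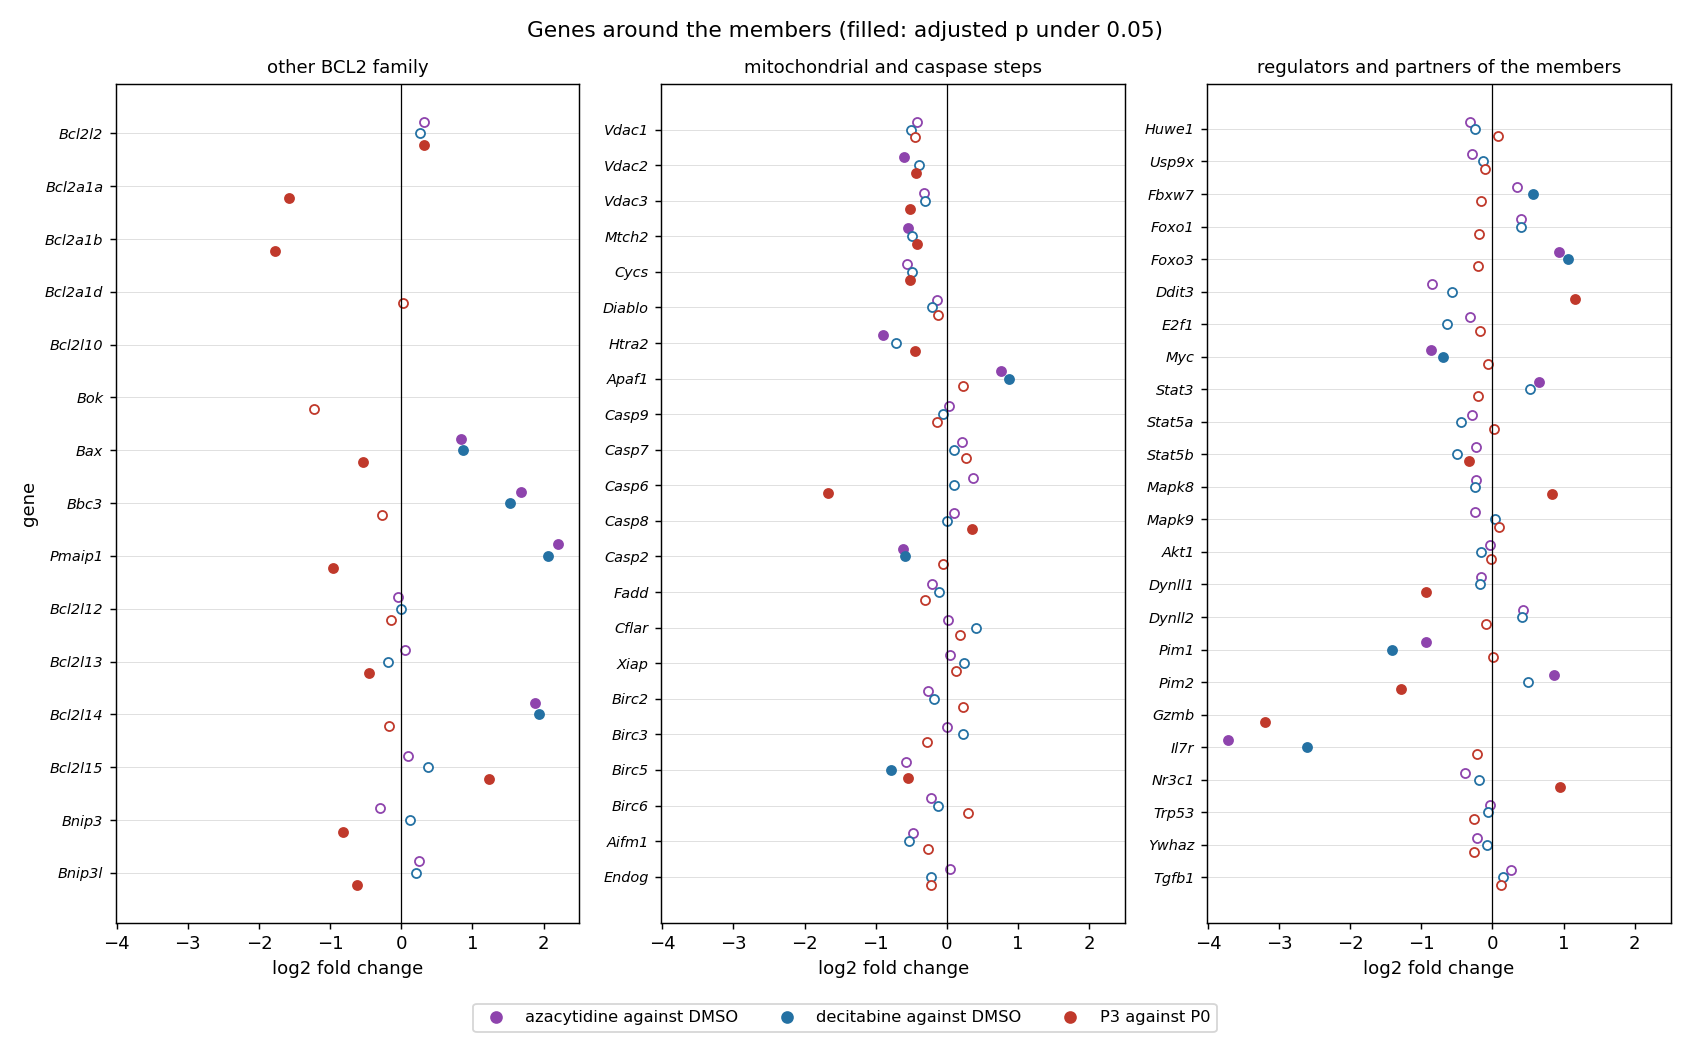
Log2 fold changes of genes of the 3 lists around the members, for azacytidine and decitabine against DMSO in EG7-OVA cells and for P3 against P0 in EL4 tumours. Filled points have an edgeR adjusted p under 0.05. Bax, Bbc3, Pmaip1 and Bcl2l14 are filled on the right for both drugs, and Bax is filled at -0.53 for P3.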

How the data were processed

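RNA-seq was analysed from the EG7-OVA and EL4 tables; the NKYS table was not used here, since the genes were defined in the mouse lines. The deposited values are counts per gene, which per the submitters' processing notes came from fastp, Trim Galore, STAR and featureCounts. Builds named there are GRCh38 and mm10; tool versions, roles and strand settings are not given in the sources used. For EG7-OVA, 145 deposited values in 62 entries were not whole, so these were taken as estimated counts by the authors and rounded; how they arose is not known. No column of values was left unmapped.

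Each table was fitted alone with edgeR 4.0.16 (R 4.3.3): filterByExpr, TMM, a mean per group (all 6 EG7-OVA libraries together), glmQLFit, and a two-sided test by quasi-likelihood; p-values were adjusted over all genes tested (Benjamini-Hochberg) to a threshold of 0.05. The SE is the log2 fold change over the root of F. CPM used TMM-scaled totals, and RPKM used summed exon length in GENCODE vM21 on mm10. The scripts were tested on simulated data. Of 100 genes given a log2 change of 1, 33 were called for azacytidine and 13 for decitabine against DMSO. For P3 against P0, 35 of 100 were called. A gene that did not pass may therefore still have changed. The members, the gene lists and their rule (all members; of each list the 3 smallest p per direction, and 14 preset genes) were chosen with earlier results of these data known. Not every gene that the rule picks is named in the text. A gene that the lists and their counts include is not reported here by name. Alternatives were the replicate block, each library left out, a fit of only the 4 libraries compared, DESeq2 1.42.0, voom in limma 3.58.1, scaling by median ratios, testing every gene with a read, and keeping genes of 100 counts in total that reach 1 CPM throughout a group. DESeq2 with an EL4 library left out was added after seeing the data. Intervals and floors cover counting error and the spread between these libraries only.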

Additional observations from a re-analysis of the deposited data

How the results depend on the processing

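With a single library left out, the group left with a lone library, assumed to vary like the other groups, the number of members higher lay between 1 and 5 with azacytidine and 1 and 2 with decitabine against DMSO, and between 0 and 1 in P3 against P0; the number lower in P3 lay between 0 and 7. Genes called overall lay between 1675 and 3897 with azacytidine, 1520 and 3290 with decitabine, 0 and 5 for azacytidine against decitabine, and 0 and 11286 in P3 against P0. For P3 against P0 with DESeq2, Bcl2 was higher (1 member) without P3 library 2, 1 and 2 members were lower without P0 library 1 and 2, and 2267 and 2201 genes were called. Azacytidine against decitabine gave 177 genes with DESeq2 and 378 with no filter. Signs turned for values that had not passed. With a library left out, Bcl2 in P3 against P0 lay between -0.083 and 0.51, and DESeq2 gave -0.086 without P3 library 1. With decitabine, Bcl2 lay between -0.12 and 0.10 (-0.0175 under median-ratio size factors and -0.0175 with DESeq2), Bak1 between -0.0069 and 0.27, and Bid between -0.0695 and 0.38; with azacytidine, Bid lay between -0.32 and 0.18. For azacytidine against decitabine, Mcl1 lay between -0.0968 and 0.19, Bmf between -0.37 and 0.90, and Bid between -0.46 and 0.0322. The cause was not tested.

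The replicate block left the members higher at 5 and 3 with the drugs, with 3609 and 2954 genes called, and 4 members lower in P3, where Mcl1 (adjusted p = 0.0555) and Bid (0.0524) were lost among 5490 genes called. The block also ended the tumour calls of Bcl2l2 (0.101), Cycs (0.0635) and Casp8 (0.0888). Deviations of same-numbered libraries correlated at -0.04 for P3 with P0, -0.26 for azacytidine with DMSO and -0.19 for decitabine with DMSO. The value was 0.27 for azacytidine with decitabine. With 2 libraries a group, these values cannot settle whether same-numbered libraries were paired. The labels and library names also number the DMSO libraries differently, so their numbers may not match those of the drugs. Of 141 summary counts under the alternatives, 122 stayed within 1.5 times the value reported. Depth limits Bik and Hrk, which had at most 9 reads in a library, and 2 libraries a group limit the rest.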
